A study of Mus musculus with 27 samples.

Results

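The genes described are 10 that encode hormones and growth factors released by the liver, or proteins that bind or activate such factors: Inhbe, Inhbc and Inhba, Fst, Tsku, Gdf15, Lect2, Fgl1, Enho and Hgfac. They were taken by symbol from a named list, and each matched 1 of the 51826 gene identifiers measured. Whole livers of wild-type BALB/c mice, an inbred laboratory strain, were profiled by bulk RNA sequencing at 7 stages, with 27 animals in all and no treatment other than breeding and weaning. The nulliparous group (NUL, 4 animals) had not borne young, and the lactation group (LAC, 3) was taken at lactation day 10. Mothers in the involution groups were taken 2, 4, 6 or 8 days after weaning (ID2, 3 animals; ID4, 4; ID6, 6; ID8, 3), and the regressed group (REG, 4) at 4 weeks after weaning. Breeding began at an age of 10 to 12 weeks, litter sizes were evened out, and weaning fell on lactation days 10 to 14. Animals were described as matched for age, but no age at collection is listed by animal. The REG mothers were taken later after breeding than the LAC mothers, and the part of age in the stage differences was not tested.

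Inhbe, Inhbc and Inhba encode the beta E, beta C and beta A subunits whose dimers form activins, ligands of the TGF-beta family that signal through paired serine kinase receptors to SMAD proteins. Follistatin, the product of Fst, binds activins and keeps them from their receptors. In liver, Inhbe and Inhbc are expressed mainly by hepatocytes, and activin E is known as a signal from liver to fat tissue. Lect2, Fgl1, Enho and Gdf15 encode circulating proteins with actions on metabolism, immunity or appetite, and Hgfac encodes a protease that activates hepatocyte growth factor.

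Estimated counts totalled between 41120650 and 75664540 per library. Hepatocyte markers were abundant in every liver: the summed level of 8 of them lay between 96508 and 236229 CPM (counts scaled per library to a common total), highest in LAC. Alb, the albumin gene, made up most of that sum and was the 1 of the 8 called in LAC against NUL; without it the means were 32368 CPM in NUL and 32431 in LAC. Summed markers of Kupffer cells (6 genes) ranged from 200 to 679 CPM and those of sinusoidal endothelial cells (6 genes) from 205 to 325 CPM. ID2_31 stood apart for 9 genes of the exocrine pancreas, with 1467 summed CPM against 10.3 in the next ID2 liver. ID4_15, at 107 against 10.8, and ID8_98b, at 41.2 against 11.3, were also above their groups. Erythroid genes (5) summed to 335 to 712 CPM in NUL, 768 to 1016 in LAC, without overlap, 411 to 1192 in ID2, 407 to 1027 in ID4, 53.1 to 264 in ID6, 19.9 to 35 in ID8 and 451 to 639 in REG. Their median log2 difference was 0.86 in LAC against NUL. All 5 were called lower in ID6 than in ID4 and 4 lower in ID8 than in ID6. Their part in the members' changes was not tested. Of the 13 clock genes listed, 6 were called in ID2 against NUL, 4 in ID2 against LAC (Dbp and Tef higher, Arntl and Clock lower) and 4 in ID8 against ID6. The hour of tissue collection is not given in the sources used here, and the part of these differences in the members' changes was not tested. Title numbers under 200, which the labels do not explain, belonged to 7 animals, namely all 3 of ID8, 2 of 3 in ID2 and 2 of 4 in ID4. For ID8 this number range and the stage cannot be told apart, while LAC, ID6, REG and NUL compare animals of the same range.

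Of the 10 genes, Lect2, Inhbe and Enho fell in lactation, by 2.58-fold, 2.92-fold and 1.60-fold against NUL, and all 3 rose again between LAC and ID2. Over the same step from LAC to ID2, Tsku and Inhba fell and Fgl1 rose. In the test for any difference among the 7 stages, 7 genes were called: Tsku, Gdf15, Inhbe, Inhba, Fgl1, Enho and Lect2. Called means a Benjamini-Hochberg adjusted p under 0.05 over 16428 genes in edgeR's quasi-likelihood test, and 27% of all genes were called among stages. Against NUL, 3 members were called in LAC, all lower (11.2% of all genes were called, 6% lower), and the median log2 fold change of the members was -0.15 against -0.01 for all genes. From LAC to ID2, 6 members were called, 4 higher and 2 lower, where 16.1% of all genes were called (8.48% higher and 7.64% lower), with a members' median of 0.35 against 0.02. Both comparisons use the same 3 LAC livers. The livers of both groups did not overlap for 6 members in LAC against NUL (21.4% of all genes) and for 8 in ID2 against LAC (35.7%). In bulk tissue, fewer cells of a type and less RNA per cell cannot be told apart.

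**Figure D1:**
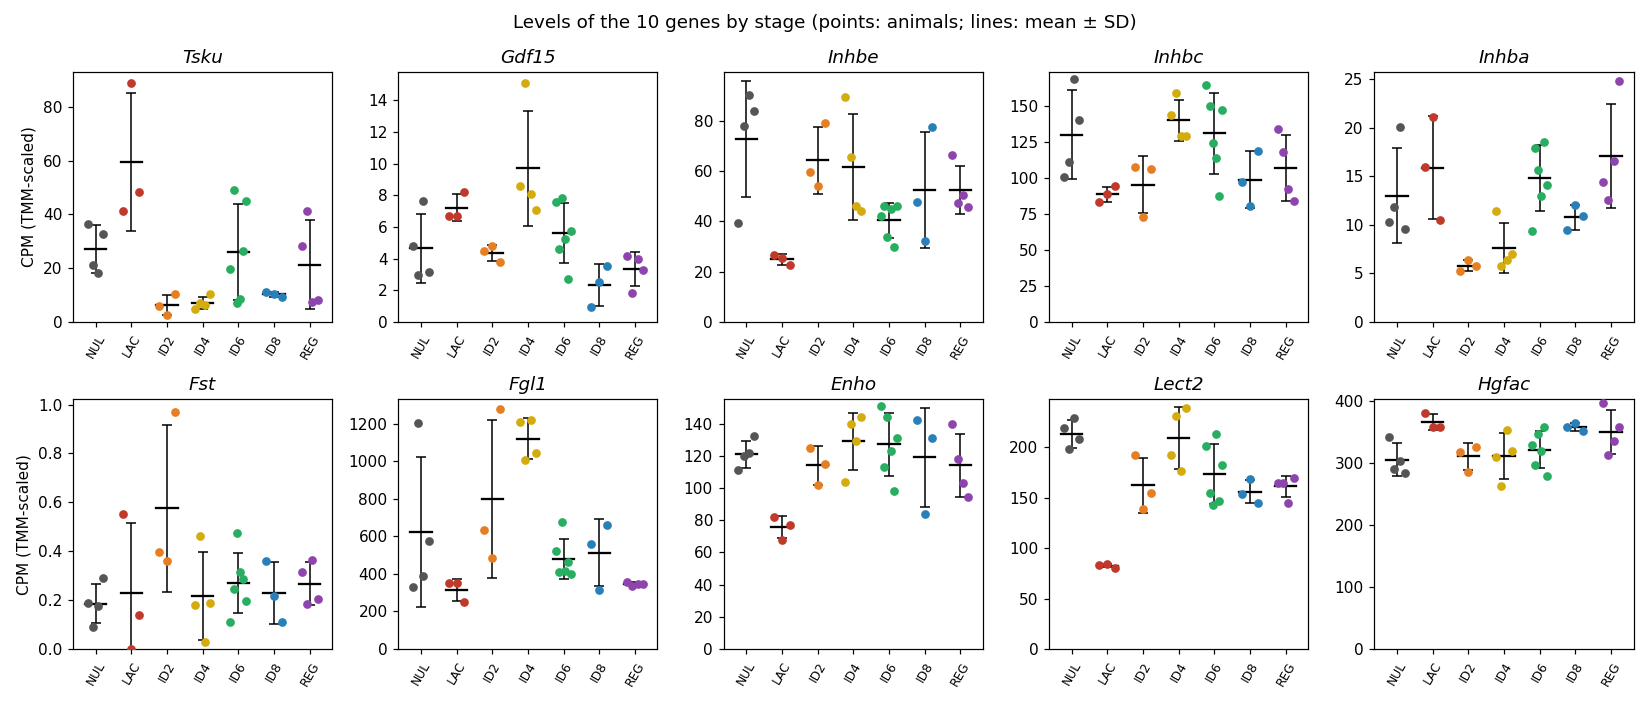
TMM-scaled CPM (vertical axes, each from 0) of the 10 genes at the 7 stages (horizontal axes), with 1 point per animal, a wide bar at the mean and whiskers of 1 SD. The 3 LAC livers lie below all others for Lect2 and Inhbe, and the 4 ID4 livers lie above all 6 ID6 livers for Fgl1.

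The start regions of 7 of the 10 genes are in the RefSeq table of assembly GRCm38.p6, which holds 32851 windows; Fst, Fgl1 and Enho were not matched. Windows of 250 bases before the start were searched on both strands for 6 motifs chosen with the sequences in view. They were the CARE element TGATGNAA (in 3.45% of all windows), the STAT5 motif TTCNNNGAA (7.02%), the D-box TTATGNAA (3.07%), the E-box CACGTG (6.02%), the nuclear receptor half-site AGGTCA (14.0%) and the palindromic HNF1 motif (0.00913%). Tsku, Inhbc and Lect2 held none of these letters. Stretches are printed 5′ to 3′ on the strand of the gene, with the match in capitals, for genes whose level or known regulation is described below, and for Lect2, the member with the smallest adjusted p in lactation, the 100 bases before the start.
Inhbe, chr10:127352011-127352040, minus strand, CARE on the opposite strand: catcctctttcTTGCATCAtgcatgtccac
Inhba, chr13:16011702-16011761, plus strand, D-box on the opposite strand: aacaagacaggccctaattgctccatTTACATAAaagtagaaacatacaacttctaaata
Gdf15, chr8:70632479-70632538, minus strand, half-site: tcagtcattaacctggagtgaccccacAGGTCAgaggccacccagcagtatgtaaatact
Hgfac, chr5:35041317-35041376, plus strand, STAT5: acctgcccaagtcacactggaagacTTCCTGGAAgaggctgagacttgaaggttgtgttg
Lect2, chr13:56548539-56548638, minus strand: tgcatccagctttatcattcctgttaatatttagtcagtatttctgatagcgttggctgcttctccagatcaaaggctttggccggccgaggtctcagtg
The Inhbe match begins 181 bases before the start, the Inhba match 123, the Gdf15 match 55 and the Hgfac match 167. The windows held 2 more matches, not printed: a half-site on the opposite strand of Hgfac, 194 bases before its start, and an E-box 83 bases before a second start of Gdf15. Of that second Gdf15 window, 196 of 250 bases lie in GENCODE exons of Gdf15. The Inhbe distance is from the RefSeq start: that whole window of 250 bases lies in an exon of the longer GENCODE model of Inhbe, inside the gene. A match describes the letters and shows no binding.

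The genes span a wide range of transcript abundance. On the length-scaled TPM of the authors, the median over the 27 livers was 691 TPM for Fgl1, 325 for Lect2, 259 for Hgfac, 146 for Enho and 85.5 for Inhbc. It was 12 TPM for Inhbe, 5.91 for Tsku, 5.17 for Gdf15 and 3.92 for Inhba. Fst was barely detected, at a median of 0.12 TPM and between 0 and 48 counts per library. The highest group mean CPM was 9.47 times the lowest for Tsku, 4.15 times for Gdf15, 3.09 times for Fst, 2.95 times for Inhba and 2.92 times for Inhbe, the 5 members of lowest TPM. Among the 5 of highest TPM it was 3.54 times for Fgl1, 2.58 for Lect2, 1.70 for Enho, 1.58 for Inhbc and 1.20 for Hgfac.

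**Figure D2:**
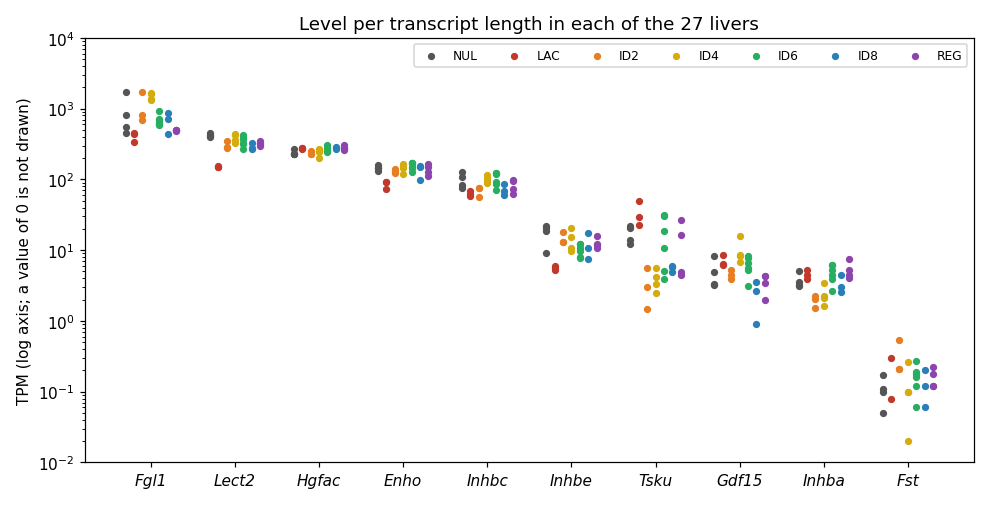
TPM on a log axis for the 10 genes (horizontal axis, ordered by median over 27 livers), with 1 point per liver, coloured and offset by stage; the LAC_213 liver at 0 for Fst is not drawn. Fgl1 has the highest median, 691 TPM, and Fst the lowest, 0.12 TPM.

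Among the activin subunits, Inhbe (ENSMUSG00000047492, chromosome 10, 127348857 to 127354411, minus strand, protein-coding) had the largest change of the 3 subunits in lactation. Its level was 39.4, 77.8, 90.5 and 83.9 CPM in the 4 NUL livers and 26.8, 25.6 and 22.6 CPM in the 3 LAC livers. Every LAC liver was below every NUL liver, of which NUL_220 was the lowest. The log2 fold change was -1.54 (SE 0.31, edgeR adjusted p = 0.00248), a 2.92-fold decrease, and the call held without each animal in turn (largest edgeR adjusted p 0.0169). At ID2 the livers were back at 59.6, 54.1 and 79.2 CPM, all above LAC, with a log2 change of 1.36 ± 0.32 (SE, edgeR adjusted p = 0.0068). With the title number range as a covariate this step was 1.02 on the log2 scale and was not called (edgeR adjusted p = 0.0711).

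Later in involution no change of Inhbe was called against NUL. The ID4 livers ranged from 44.3 to 89.6 CPM, the ID6 livers from 29.6 to 46.3 with a median of 43.4, the ID8 livers from 32 to 77.7 and the REG livers from 45.8 to 66.3. For ID6 against NUL the log2 fold change was -0.85 (SE 0.25, edgeR adjusted p = 0.0989). It was -1.06 and called without NUL_220 (edgeR adjusted p = 0.0293), and DESeq2 called it with all livers (adjusted p = 0.0246). Among stage means, ID6 at 40.4 CPM was the next lowest after LAC at 25, and the livers of these groups did not overlap.

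Inhbc (ENSMUSG00000025405, chromosome 10, 127356322 to 127370431, minus strand) lies 1910 bases from Inhbe, on the same strand, with no protein-coding gene between them. No change of it was called in edgeR. The NUL livers had 100.6, 110.9, 169.1 and 140.0 CPM and the LAC livers 83.2, 88.7 and 94.1 CPM. These groups did not overlap, but the log2 fold change of -0.55 (SE 0.21) did not pass in edgeR (adjusted p = 0.0924), while DESeq2 called it (adjusted p = 0.0405). At ID2 the values were 108, 72.6 and 106 CPM, a log2 difference from LAC of 0.11 (SE 0.22, edgeR adjusted p = 0.798). Whether the neighbours differ in this step was not tested. Inhbc had its highest group mean at ID4, 140 CPM, with every ID4 liver above every ID2 liver. That log2 difference of 0.56 (SE 0.21) was not called in the fit of all livers (edgeR adjusted p = 0.205). With only the ID2 and ID4 livers fitted it was called (edgeR adjusted p = 0.0496). The test among stages gave an edgeR adjusted p of 0.0551. It passed without NUL_220 (edgeR adjusted p = 0.0347), ID6_230 (0.0161), ID8_98b (0.0393) or REG_203 (0.0351), in DESeq2 (0.00482), and in limma on log2(TPM + 1) (0.0208) and log2(TPM + 0.1) (0.0204). Counts of Inhbc were not whole in 5 libraries, which RSEM gives where reads are divided between features.

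The levels of the neighbouring genes can also be set against each other within each liver. The ratio of Inhbc to Inhbe TPM within a liver was 5.96 ± 1.55 in NUL (SD, n = 4), 11.3 ± 1.73 in LAC (n = 3), 4.75 ± 0.849 in ID2 (n = 3) and 7.71 ± 1.87 in ID4 (n = 4). It was 10.3 ± 1.53 in ID6 (n = 6), 6.42 ± 1.57 in ID8 (n = 3) and 6.48 ± 1.02 in REG (n = 4). All 3 LAC livers, from 9.82 to 13.2, were above all 4 NUL livers, from 4.52 to 8.12. These ratios were chosen with the levels of both genes in view and were not tested.

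**Figure D3:**
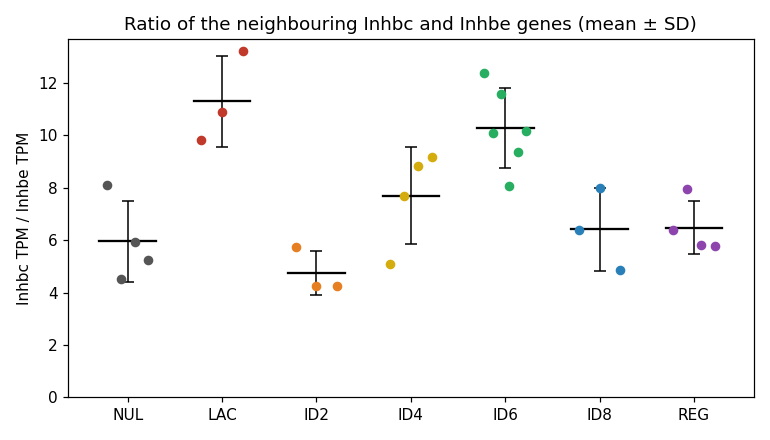
Ratio of Inhbc TPM to Inhbe TPM within each liver (vertical axis, from 0) by stage (horizontal axis), with 1 point per animal, a bar at the mean and whiskers of 1 SD. LAC and ID6 have the highest means, 11.3 and 10.3, and ID2 the lowest, 4.75.

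Inhba (ENSMUSG00000041324, chromosome 13, 16011851 to 16031621, plus strand), whose subunit forms activin A, was low in every liver and fell after weaning. It had 10.3, 11.8, 20.1 and 9.56 CPM in NUL and 16, 21.1 and 10.5 CPM in LAC, with overlap and a log2 difference of 0.29 (SE 0.29, edgeR adjusted p = 0.602). At ID2 it fell to 5.21, 6.41 and 5.79 CPM, below all LAC and all NUL livers. The fall from LAC was 1.45 on the log2 scale (fold change -1.45, SE 0.32, edgeR adjusted p = 0.00434), called without each animal and in all 11 other alternatives. Against NUL the log2 fold change was -1.16 (SE 0.31, edgeR adjusted p = 0.0402; 0.919% of all genes were called lower), and it was the 1 member called there (3.24% of all genes were called). DESeq2 called 2, Inhba and Tsku, and 5.25% of all genes. The call was lost without NUL_221 (edgeR adjusted p = 0.061), NUL_226 (0.13), ID2_224 (0.132), ID2_31 (0.098) or ID2_39 (0.152), and in 8 other alternatives, among them a threshold of 0.01 and limma on log2(TPM + 1), where the log2 fold change was -0.69 (adjusted p = 0.104).

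Inhba rose between ID4 and ID6, 1 of 2 members called in that comparison (8.53% of all genes), where DESeq2 called 3 (11.2%). The ID4 livers had 11.4, 5.71, 6.36 and 6.99 CPM, and the 6 ID6 livers ranged from 9.38 to 18.5 CPM with a median of 14.9, of which 5 were above all ID4 livers. The log2 fold change was 0.96 (SE 0.26, edgeR adjusted p = 0.0228; 3.89% of all genes were called higher). That call was lost without ID4_15 (edgeR adjusted p = 0.0756), ID4_211 (0.071), ID4_215 (0.0663) or ID6_209 (0.0526), with log2 fold changes from 0.84 to 0.92. The REG livers, at 14.4, 12.6, 16.6 and 24.8 CPM, had the highest group mean, 17.1 CPM, and overlapped NUL (log2 difference 0.40, SE 0.27, edgeR adjusted p = 0.868). Summed markers of stellate cells (7 genes) were 162 to 191 CPM in NUL, 130 to 139 in LAC, 142 to 157 in ID2, 160 to 178 in ID4 and 149 to 162 in ID6. Those of mesothelial cells (4 genes) were 5.89 to 7.45 CPM in ID4 and 2.88 to 5.93 in ID6, with Upk3b called lower in ID6. Their part in the Inhba values was not tested.

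Fst (ENSMUSG00000021765, chromosome 13, 114452290 to 114458951, minus strand) gave too few reads to follow closely. The highest of all livers was ID2_39 at 0.971 CPM, and the other ID2 livers had 0.396 and 0.359 CPM against 0.0914 to 0.289 CPM in NUL. The ID2 livers were all above the NUL livers, with a log2 fold change of 1.60 (SE 0.73) that did not pass in edgeR (adjusted p = 0.253). LAC livers had 0.552, 0 and 0.139 CPM. Without LAC_200 the step from LAC to ID2 was called at a log2 fold change of 3.01 (edgeR adjusted p = 0.0383), against an edgeR adjusted p of 0.286 with all livers, and it then rests on a LAC group of which 1 liver had 0 counts.

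Of 12 ligand genes tested besides the members, 3 were called in LAC against NUL, all lower, with a list median of -0.46 against -0.01 for all genes. Bmp2, a bone morphogenetic protein made by sinusoidal endothelium, had a log2 change of -0.67 ± 0.13 (SE, edgeR adjusted p = 0.00113) and Gdf10 one of -0.60 (SE 0.14, edgeR adjusted p = 0.00544). Tgfb1 was the third (-0.49, SE 0.13, edgeR adjusted p = 0.0135), and the same 3 genes were called higher in ID2 than in LAC. Inhbb, the beta B subunit of activin B, rose from 0.696 CPM in NUL to 1.99 in ID4 (log2 fold change 1.51, SE 0.39, edgeR adjusted p = 0.023) and 1.91 in ID6 (1.46, SE 0.36, edgeR adjusted p = 0.0428). Without ID4_15 the ID4 change was 1.40 and not called (edgeR adjusted p = 0.0619). Of 6 Kupffer cell markers, 4 were called lower in LAC than in NUL (list median -0.59), and their sums, 200 to 287 against 304 to 388 CPM, did not overlap. Against NUL, 5 of them were called higher in ID4 and 4 in ID6. Sums of 6 sinusoidal endothelial markers, from 205 CPM upward in LAC and 263 to 300 in NUL, did not overlap either, and Fcgr2b was the 1 called, lower. The part of both cell types in the ligand values was not tested.

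Of 12 receptor genes tested, 3 were called lower in LAC than in NUL (list median -0.11): Tgfbr3, Acvrl1 and Eng. Tgfbr3, a co-receptor that also binds inhibins, had a log2 change of -0.50 ± 0.14 (SE, edgeR adjusted p = 0.0189), and Acvrl1, an endothelial receptor, one of -0.46 (SE 0.15, edgeR adjusted p = 0.0462). Acvr1c, which encodes the ALK7 receptor reported for activin E on fat cells, had at most 15 counts in any liver. Among 9 inhibitors and binding proteins tested, 3 were called, 1 higher and 2 lower (list median -0.43). Ltbp4, which binds latent TGF-beta (-0.91, edgeR adjusted p = 0.000118), and Fstl1 (-0.91, edgeR adjusted p = 0.00376) were those that fell. The part of the sinusoidal endothelial markers in these values was not tested either.

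Downstream of the receptors, 1 of 8 SMAD genes and 2 of 8 SMAD targets were called in LAC against NUL, all lower. Smad6, an inhibitory SMAD, had a log2 change of -0.55 ± 0.15 (SE, edgeR adjusted p = 0.0135). Atoh8, a target of BMP signalling in hepatocytes, fell from 31.5 ± 6.36 CPM in NUL (SD, n = 4) to 12.8 ± 1.98 in LAC (n = 3; edgeR adjusted p = 2.02e-05), and Pmepa1 fell by 0.76 on the log2 scale (SE 0.24, edgeR adjusted p = 0.0409). From LAC to ID2, Atoh8 rose by 0.71 (SE 0.18, edgeR adjusted p = 0.0074) and was the only call among both lists, with 0 of 8 SMAD genes called. Without ID2_31, Smad9 was called lower in that step at -1.40 (edgeR adjusted p = 0.00515), against -0.83 with all livers (edgeR adjusted p = 0.0751). With all livers Smad9 was called lower than NUL in ID2 (-1.48, SE 0.30, edgeR adjusted p = 0.00652) and in ID4 (-1.73, SE 0.28, edgeR adjusted p = 0.000596). It was called higher in ID6 than in ID4 (1.23, SE 0.26, edgeR adjusted p = 0.0045).

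Tsku (ENSMUSG00000049580, chromosome 7, 98350668 to 98361328, minus strand) encodes tsukushi, a secreted leucine-rich proteoglycan that binds TGF-beta, BMP and Wnt ligands and is released by liver. The LAC livers had 41.1, 88.8 and 48.3 CPM and the NUL livers 36.6, 21, 18.2 and 32.7 CPM. LAC lay above NUL in every liver, though the log2 difference of 1.13 (SE 0.64) did not pass (edgeR adjusted p = 0.303). At ID2 the values were 5.99, 2.54 and 10.3 CPM, all below every LAC and NUL liver. The fall from LAC was the largest of any member among the 11 comparisons of stages, a log2 change of -3.26 ± 0.76 (SE, edgeR adjusted p = 0.0065), or 9.58-fold, and it was called without each animal in turn. With the title number range as a covariate it was -3.06 (edgeR adjusted p = 0.052).

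At ID4 Tsku was at 4.77, 6.82, 6.22 and 10.3 CPM, all below NUL. The log2 difference from NUL was -2.13 at ID2 (SE 0.71, edgeR adjusted p = 0.11) and -1.95 at ID4 (SE 0.63, edgeR adjusted p = 0.0825), and DESeq2 called both (adjusted p = 0.0225 and 0.0188). At ID6 and REG the livers of a stage were far apart. The 6 ID6 livers had 19.5, 49.2, 7.02, 8.34, 26.2 and 44.9 CPM, and the 4 REG livers 28.3, 41.4, 7.21 and 8.29 CPM, whereas the ID8 livers were tight at 11, 10.5 and 9.16 CPM. For ID6 against ID4 the edgeR adjusted p was 0.0536, and it was 0.0298 without ID6_216 and 0.0308 without ID6_218. DESeq2 called this step with all livers, at 1.87 on the log2 scale (adjusted p = 0.00755). In the test among stages the call of Tsku was lost with the title number range as a covariate (edgeR adjusted p = 0.109).

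Gdf15 (ENSMUSG00000038508, chromosome 8, 70629393 to 70632456, minus strand) encodes a stress-induced hormone that reduces appetite through the GFRAL receptor of the hindbrain. Its level was highest at ID4, with 8.57, 15.1, 8.06 and 7.1 CPM, and lowest at ID8, with 0.932, 2.54 and 3.54 CPM. NUL livers had 4.82, 2.99, 7.65 and 3.13 CPM, LAC livers 6.71, 6.71 and 8.21, and ID2 livers 4.48, 4.81 and 3.78. Gdf15 differed among stages (edgeR adjusted p = 0.00704) and kept that call without each animal. None of the 11 comparisons of stages passed in edgeR: the smallest adjusted p was 0.0774, for ID8 against ID6, at a log2 difference of -1.23 (SE 0.40). DESeq2 called that step (adjusted p = 0.0215), as did limma on log2(TPM + 1) (adjusted p = 0.0298) and edgeR without ID6_230 (adjusted p = 0.0418). It sets animals numbered under 200 against animals numbered 200 and over. With only the LAC and ID2 livers fitted, the fall of 0.72 on the log2 scale between them was called (edgeR adjusted p = 0.00911; 0.275 in the fit of all stages). The highest Gdf15 value, 15.1 CPM, is that of ID4_15, which also had pancreas markers.

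Gdf15 and Inhbe are both known to be induced by the integrated stress response through ATF4, so other targets of that pathway were counted. Of 15 tested, 1 was called in LAC against NUL, where Ddit4, an inhibitor of mTORC1, rose by a log2 change of 1.17 ± 0.18 (SE, edgeR adjusted p = 0.000112). From LAC to ID2, 3 rose and 2 fell. Nupr1 (log2 fold change 2.81, SE 0.78, edgeR adjusted p = 0.0155) and Trib3 (1.08, SE 0.23, edgeR adjusted p = 0.00178) rose most, and Ddit4 (-1.04) and Atf4 itself (-0.74, SE 0.16, edgeR adjusted p = 0.00259) fell. The Nupr1 call rests on 1 liver: ID2_31, the liver with exocrine pancreas RNA, had 4.76 CPM, against 0.158 and 0.384 in the other ID2 livers and 0.103 to 0.398 in LAC. Without ID2_31 the change was 0.08 (edgeR adjusted p = 0.96), and 2 of the 15 rose and 2 fell. At ID4, where the mean of Gdf15 was highest, Trib3 and Sesn2 were called higher than in NUL (log2 fold change 0.70 and 0.32). The other 13 of the 15 were not called. Trib3 was also called higher than NUL at ID2 (0.81, SE 0.21, edgeR adjusted p = 0.0266), where Gdf15 averaged 4.36 CPM against 4.65 in NUL. Without ID2_31 that Trib3 change was 0.84 and not called (edgeR adjusted p = 0.0652). Without ID4_15 the ID4 changes of Trib3 and Sesn2 were 0.55 and 0.32, and neither was called (edgeR adjusted p = 0.135 and 0.0688). The 1 call of the list was then lower: Aldh1l2, a mitochondrial folate enzyme, at -3.35 on the log2 scale (edgeR adjusted p = 0.0428, against 0.231 with all livers). It was also called lower than in ID2 without that liver (-4.02, edgeR adjusted p = 0.0317; 0.142 with all). Aldh1l2 was barely detected, at 0.0914 to 0.27 CPM in NUL and 0 to 0.165 in ID4. Gfral was listed at 0 in all 27 livers.

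Lect2 (ENSMUSG00000021539, chromosome 13, 56542464 to 56548502, minus strand) encodes leukocyte cell-derived chemotaxin 2, a hepatocyte protein that circulates in blood. It had the smallest adjusted p of all members in the comparison of lactation with NUL. NUL livers had 219, 198, 229 and 208 CPM, and LAC livers 83.5, 83.8 and 80.7 CPM. The LAC values lay close together and below the livers of all other stages. The log2 fold change was -1.37 (SE 0.13, edgeR adjusted p = 2.61e-07), a 2.58-fold decrease. Over all alternatives it ranged from -1.48 to -1.33, and it was -1.36 without mitochondrial genes and the 10 genes of most counts. It was called without each animal in turn (largest edgeR adjusted p 7.57e-06).

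At ID2 Lect2 had 192, 139 and 155 CPM, all above LAC and all below NUL. The rise from LAC was 0.97 on the log2 scale (SE 0.14, edgeR adjusted p = 3.38e-05), and the remaining difference from NUL of -0.39 (SE 0.13) was not called (edgeR adjusted p = 0.0883). Without ID2_224 it was -0.54 and called (edgeR adjusted p = 0.0423), and limma called it on log2(TPM + 1) at -0.46 (adjusted p = 0.0443) and on log2(TPM + 0.1) at -0.47 (adjusted p = 0.045). ID4 livers reached 192, 231, 176 and 238.9 CPM and overlapped NUL. The 6 ID6 livers ranged from 143 to 213.2 CPM with a median of 168, and the ID8 livers had 154, 168 and 145 CPM. All ID8 livers were below every NUL liver, at a log2 difference of -0.45 (SE 0.13) that was not called in edgeR (adjusted p = 0.113). DESeq2 called it at -0.46 (adjusted p = 0.0486). At 4 weeks after weaning, the REG livers had 164, 164, 145 and 169 CPM, below every NUL liver. That difference of -0.41 on the log2 scale (SE 0.12) was not called (edgeR adjusted p = 0.255), where 0.0852% of all genes were called and no member was. Leaving out ID6_218 gave a call for ID6 against ID4 (log2 fold change -0.34, edgeR adjusted p = 0.0399).

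Fgl1 (ENSMUSG00000031594, chromosome 8, 41191434 to 41215156, minus strand) encodes fibrinogen-like protein 1, a secreted hepatocyte protein known to rise in the acute phase response. NUL livers had 332, 1204, 387 and 573 CPM, and LAC livers 350, 349 and 249 CPM. NUL_221 stood far above the other NUL livers, and the groups overlapped. The log2 difference was -0.98 (SE 0.37, edgeR adjusted p = 0.0948), -1.19 without NUL_220 (edgeR adjusted p = 0.042) and -0.44 without NUL_221 (edgeR adjusted p = 0.433). ID2 livers had 634, 484 and 1278 CPM, all above LAC, a log2 change of 1.34 ± 0.39 (SE, edgeR adjusted p = 0.0237). That call was lost without ID2_39, at 0.83 (edgeR adjusted p = 0.182), without LAC_200 (0.0507), LAC_213 (0.0621) or LAC_240 (0.087), with only the LAC and ID2 livers fitted (0.104), and with the title number range as a covariate (0.123).

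The ID4 livers were uniformly high in Fgl1, at 1208, 1009, 1221 and 1042 CPM. Against NUL the log2 difference was 0.84 (SE 0.33, edgeR adjusted p = 0.167), and without NUL_221 it was 1.38 and called (edgeR adjusted p = 0.00998). By ID6 the level had fallen to between 397 and 674 CPM, with a median of 439, and no ID6 liver reached an ID4 liver. This was a 2.33-fold decrease, at a log2 change of -1.22 ± 0.30 (SE, edgeR adjusted p = 0.0148; 4.64% of all genes were called lower). It was called without each animal, and with the title number range as a covariate it was -1.14 (edgeR adjusted p = 0.067). In REG the 4 livers lay between 338 and 358 CPM, a coefficient of variation of 2.50%. Summed Kupffer cell markers were 529 to 591 CPM in ID4, 410 to 679 in ID6 and 200 to 287 in LAC, and their part in the Fgl1 values was not tested.

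Enho (ENSMUSG00000028445, chromosome 4, 41638144 to 41640324, minus strand) encodes adropin, a peptide linked to fuel use. NUL livers had 111, 120, 122 and 132 CPM and LAC livers 81.9, 68 and 77.3 CPM, without overlap. The log2 fold change was -0.68 (SE 0.16, edgeR adjusted p = 0.00636), called without each animal in turn (largest edgeR adjusted p 0.0459). At ID2 the values were 125, 102 and 115 CPM, all above LAC, with a log2 change of 0.59 ± 0.17 (SE, edgeR adjusted p = 0.0184). This call was lost without LAC_213 (edgeR adjusted p = 0.0955), ID2_224 (0.079) or ID2_39 (0.0507), and the call among stages without LAC_213 (0.102) or LAC_240 (0.0579). From ID4 to REG all livers lay between 84.1 and 151 CPM. Dnaic1, a dynein gene on the opposite strand, overlaps Enho and reached 1895 counts. The strand setting of the counting is not given in the sources used here. Enho counts were whole in all 27 libraries, and how far reads of Dnaic1 enter them was not tested.

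Hgfac (ENSMUSG00000029102, chromosome 5, 35041509 to 35048461, plus strand) varied least. NUL livers had 343, 290, 304 and 285 CPM, and LAC livers 381, 359 and 359 CPM. LAC lay above NUL in each liver, but the log2 difference of 0.26 (SE 0.10) was not called (edgeR adjusted p = 0.0941), nor was the test among stages (edgeR adjusted p = 0.132). Its substrate showed a call: Hgf, hepatocyte growth factor, fell by 0.89 on the log2 scale in LAC against NUL (SE 0.17, edgeR adjusted p = 0.000955). Of 14 genes of HGF activation and its receptor, 3 were called in that comparison, all lower, and 4 from LAC to ID2, all higher. Without ID2_31 the latter number was 3, as St14 was not called (1.26, edgeR adjusted p = 0.0765, against 1.33 with all livers). The list medians were -0.23 and 0.36. Plaur, the urokinase receptor, had the largest change in each, at -1.65 (edgeR adjusted p = 0.0143) and 1.70 (edgeR adjusted p = 0.0126), from levels under 1 CPM. Stellate cell markers moved with Hgf: 3 of 7 (Reln, Ngfr and Colec11) were called lower in LAC than in NUL, with a list median of -0.51, and their sums did not overlap (130 to 139 against 162 to 191 CPM). Their part in the Hgf values was not tested.

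**Figure D4:**
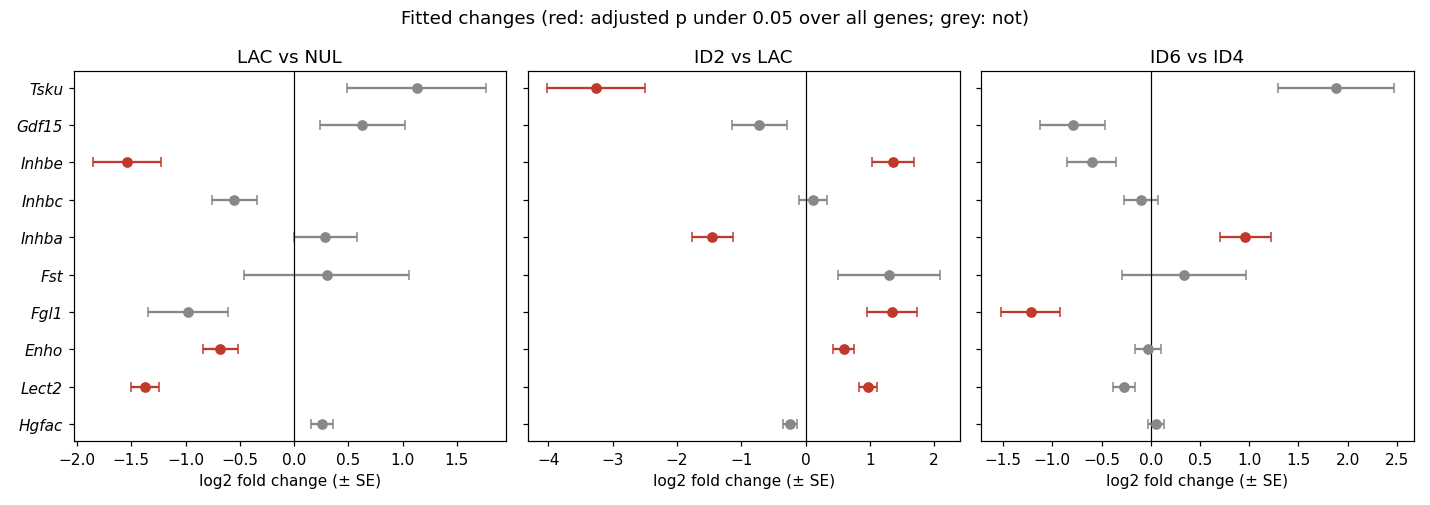
Fitted log2 fold change (horizontal axes) of the 10 genes (rows) with whiskers of 1 SE, in 3 panels (lactation, the step to ID2, and the step from ID4 to ID6); red marks an adjusted p under 0.05 over all genes and grey the rest. Inhbe, Enho and Lect2 are red to the left in lactation and red to the right at ID2, and Inhba and Fgl1 are red at ID6.

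In the comparisons not yet given, no member was called. These were ID4, ID6 and ID8 against NUL (4.25%, 1.08% and 0.499% of all genes called), ID4 against ID2 (1.49%), ID8 against ID6 (4.12%) and REG against ID8 (0.0487%). At an unadjusted p under 0.05 the members numbered 4, 2, 3, 3, 2 and 1 in these, where 18.6%, 11.9%, 12.8%, 13.9%, 20.5% and 9.02% of all genes passed, and 3 for REG against NUL (7.17%). DESeq2 called 1, 1, 1, 0, 1 and 0 of the members, and 6.86%, 2.74%, 1.42%, 3.15%, 7.37% and 0.475% of all genes. For REG against NUL it called 0 members and 0.45% of all genes. Livers did not overlap for 4 members in ID2 against NUL (17.9% of all genes), 1 in ID4 (11.6%), 0 in ID6 (3.38%), 3 in ID8 (11.9%) and 1 in REG (3.7%). In the steps between later stages the members without overlap were 2 for ID4 against ID2 (16.2%), 1 for ID6 against ID4 (8.25%), 0 for ID8 against ID6 (10.1%) and 1 for REG against ID8 (7.71%).

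Genes of most similar pattern were taken by Pearson correlation of log2 CPM over the 27 livers, which share stage and depth, among 10512 genes. For Fgl1 these were Lrg1 (r = 0.949), Lcn2 (0.918) and Lbp (0.908), all known acute phase genes. The highest NUL and ID2 livers in Fgl1, NUL_221 and ID2_39, were also the highest of their groups in Lbp, at 231 and 282 CPM. For Tsku they were Ppcs (0.905), Bysl (0.905) and Rrp8 (0.901), and for Enho Grhpr (0.92), Serpina11 (0.85) and its overlapping neighbour Dnaic1 (0.84). Lect2 was most like Cyp2e1 (0.874), Dio1 (0.868) and Cmtm3 (0.841). Correlations were lower for Inhbe with Fam210b (0.799) and the near-identical copies Tmem254b and Tmem254a (0.773 each, uncertain), and for Inhba with Ets2 (0.796), Cbfb (0.776) and Nid2 (0.773). Gdf15 had the weakest, with Ccng1 (0.704), Dus3l (0.692) and Chpf2 (0.689). Between members, the highest was Enho with Lect2 (0.716) and the lowest Inhba with Fgl1 (-0.593).

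Among 22 other liver hormones, 4 were called in LAC against NUL, 1 higher and 3 lower, with a list median of -0.12. Hamp, which encodes the iron hormone hepcidin, fell by 1.67 on the log2 scale (SE 0.21, edgeR adjusted p = 2.12e-05), and Ctf1 by 0.60 (edgeR adjusted p = 0.0051). From LAC to ID2, 6 rose and 2 fell: Gpnmb (1.36, edgeR adjusted p = 0.0207) and Hamp (1.06, edgeR adjusted p = 0.00213) rose most, and Fgf1 was among those that fell (-0.39, edgeR adjusted p = 0.0359). Without ID2_31, 5 rose and 1 fell. Gpnmb, at 1.19 (edgeR adjusted p = 0.0851), and Fgf1, at -0.30 (edgeR adjusted p = 0.183), were then not called.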

How the data were processed

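Gene tables of 27 whole-liver RNA libraries were used, 1 per animal. Per the submitters' processing notes, reads were handled with STAR 2.6.1a and RSEM 1.3.1 on mm10 (GRCm38); annotation and strand setting are not given in the sources used here. The authors deposited RSEM expected counts and, per the file headers, TPM. Expected counts were rounded and fitted with edgeR 4.0.16 (R 4.3.3; filterByExpr, TMM, robust quasi-likelihood) with 7 groups in 1 model, and p-values were adjusted over 16428 genes; the biological coefficient of variation was 0.19. CPM is scaled with TMM. Alternatives used DESeq2 1.42.0, limma 3.58.1 on log2(TPM + 1) or log2(TPM + 0.1), other scalings, filters and covariates, and leaving out each animal. The tests of LAC against NUL were checked on simulated counts with 1 spread for all genes. The test among stages, the fits with covariates and limma on TPM were not checked in this way. Members, gene lists and motifs were chosen with earlier results of these data known. All 10 members are named; from other lists, up to 2 called genes per direction with the largest change in lactation and at ID2, 1 elsewhere, and, chosen after their values were seen, those that complete a short count. The 3 genes most correlated with each member called among stages are given. Positions are from GENCODE M21. Title numbers are those of the animals; labels name no cultures or litters. Values of 2 genes of the other lists are not reported here. Fits of the related lists without each liver with pancreas markers were added after seeing the data.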

Additional observations from a re-analysis of the deposited data

How the results depend on the processing

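Of 2437 values of single members under the alternatives, 2370 stayed on the same side of the threshold, 37 lost a call and 30 gained one. A call was reversed in 0. The sign of values that stayed uncalled is not covered by this count. The number of members called in ID2 against NUL was 1; it was 0 without the filter on low counts, with the effective length offset, with title number or sequencing runs as covariate (runs added after seeing the data), with only both groups fitted and at an adjusted p under 0.01, and 2 with DESeq2. Both limma fits also called 1 member there, Lect2 in place of Inhba. DESeq2 called 3 in place of 2 for ID6 against ID4, with Tsku. DESeq2 gave 1 in place of 0 for ID4, ID6 and ID8 against NUL and for ID8 against ID6, where both limma fits also gave 1. Fitting only both groups gave 1 in place of 0 for ID4 against NUL and ID4 against ID2. The title number covariate gave 3 in place of 6 for ID2 against LAC and 1 in place of 2 for ID6 against ID4, which was 0 at an adjusted p under 0.01. The cause was not tested. Leaving out each animal gave 0 to 1 for ID2, ID4 and ID6 against NUL and for ID8 against ID6, and 1 to 4 for ID6 against ID4. The fall of Lect2, Inhbe and Enho in lactation was called without each animal. Fst, at 0 to 48 counts, is limited by depth. No paired analysis was possible because the groups share no replicate number.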
